A study of Homo sapiens with 12 samples.

Results

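The genes of prostaglandin synthesis, breakdown and sensing were followed in HT-29 cells, in some groups under a treatment that induces necroptosis. The 9 genes were chosen by name, not by their values: the phospholipase PLA2G4A, the cyclooxygenases PTGS1 and PTGS2, the prostaglandin E synthases PTGES, PTGES2 and PTGES3, the inactivating dehydrogenase HPGD, and the prostaglandin E2 receptors PTGER2 and PTGER4. All 9 were listed among the 26485 genes of the 6 deposited comparison tables. These cells are a line long established from a human adenocarcinoma of the colon. Treatment lasted 8 h in every group and was DMSO, TNFα (10 ng/ml), TSZ, or TSZ and Nec-1s (10 μM). The TSZ mixture combined TNFα (10 ng/ml), SM-164 (50 nM) and zVAD (20 μM). IAP proteins are antagonised by SM-164, a Smac mimetic, caspases are blocked by zVAD, and the RIPK1 kinase is inhibited by Nec-1s. SM-164 and zVAD were given only together with TNFα in these libraries, so their own effects cannot be told apart from that of the mixture. The RNA was polyA-selected and sequenced in bulk in 12 libraries, 3 for each group, so fewer cells with an RNA and less of that RNA per cell cannot be told apart. Nothing in the labels ties the libraries of 1 group to separate cultures, and the p-values then measure only a spread between libraries that may be technical.

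Prostaglandin E2 is made in steps. A phospholipase frees arachidonic acid from membrane lipids, a cyclooxygenase turns it into prostaglandin H2, and a terminal synthase turns that into prostaglandin E2, which acts on G protein-coupled receptors until a dehydrogenase oxidises it. In the gut, PTGS1 is the cyclooxygenase present in resting tissue, while PTGS2 (COX-2) is switched on by cytokines and is often high in colon tumours, where HPGD is often low.

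The tables give 1 mean of scaled reads per group, and whole reads per library were solved from these means, as set out under the processing. For each of the 9 genes in each of the 4 groups the search over every combination of whole reads gave 1 solution. The libraries of a group are called a, b and c by ascending size factor, and the letters pair nothing between groups. Depth was estimated at 8859420 to 12726900 reads per library. Of 9 colon epithelium markers, 7 had a mean of at least 10 normalized reads in every group, KRT8 and EPCAM among them. CDX1 and CDX2 did not, and CDX1 had no read in DMSO or TSZ plus Nec-1s. Of 8 leukocyte markers, PTPRC, CD3E and MS4A1 had no read in any library. CD14, CD68 and LYZ reached a mean of 10 in every group, and ITGAM in every group but DMSO. The leukocyte list as a whole summed to 15167 to 20553 over the group means, and it was highest with TSZ. Its 7 solved genes summed to 220 to 263 in single DMSO libraries and 605 to 724 in TSZ libraries. Nearly all of the total thus lay in the gene left unsolved. The 8 markers of fibroblasts and endothelium summed to 132, 53.2, 349 and 52.0 over the means of DMSO, TNFα, TSZ and TSZ plus Nec-1s, with 56.7 to 202 in single DMSO libraries and 213 to 496 in TSZ libraries. The part of either list in the results was not tested. In 3 libraries, DMSO b, TNFα c and TSZ c, the deviation from the group followed the GC content of the genes, with Spearman's rho across genes of -0.78, -0.59 and -0.73, and AT-rich genes were high there. In the pathway these were PTGS2, PLA2G4A, HPGD and PTGES3, with exons of 37.6% to 41.8% GC against a median of 49.6% over the tested genes. The deviation was taken within each group, so a GC shift shared by all libraries of a group would not show. The remaining libraries of DMSO, TNFα and TSZ had a positive rho. It was 0.76 and 0.52 in DMSO a and c, 0.22 and 0.46 in TNFα a and b, and 0.57 and 0.53 in TSZ a and b. Leaving out the 3 libraries with a negative rho therefore does not make the rest free of a GC trend.

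**Figure D1:**
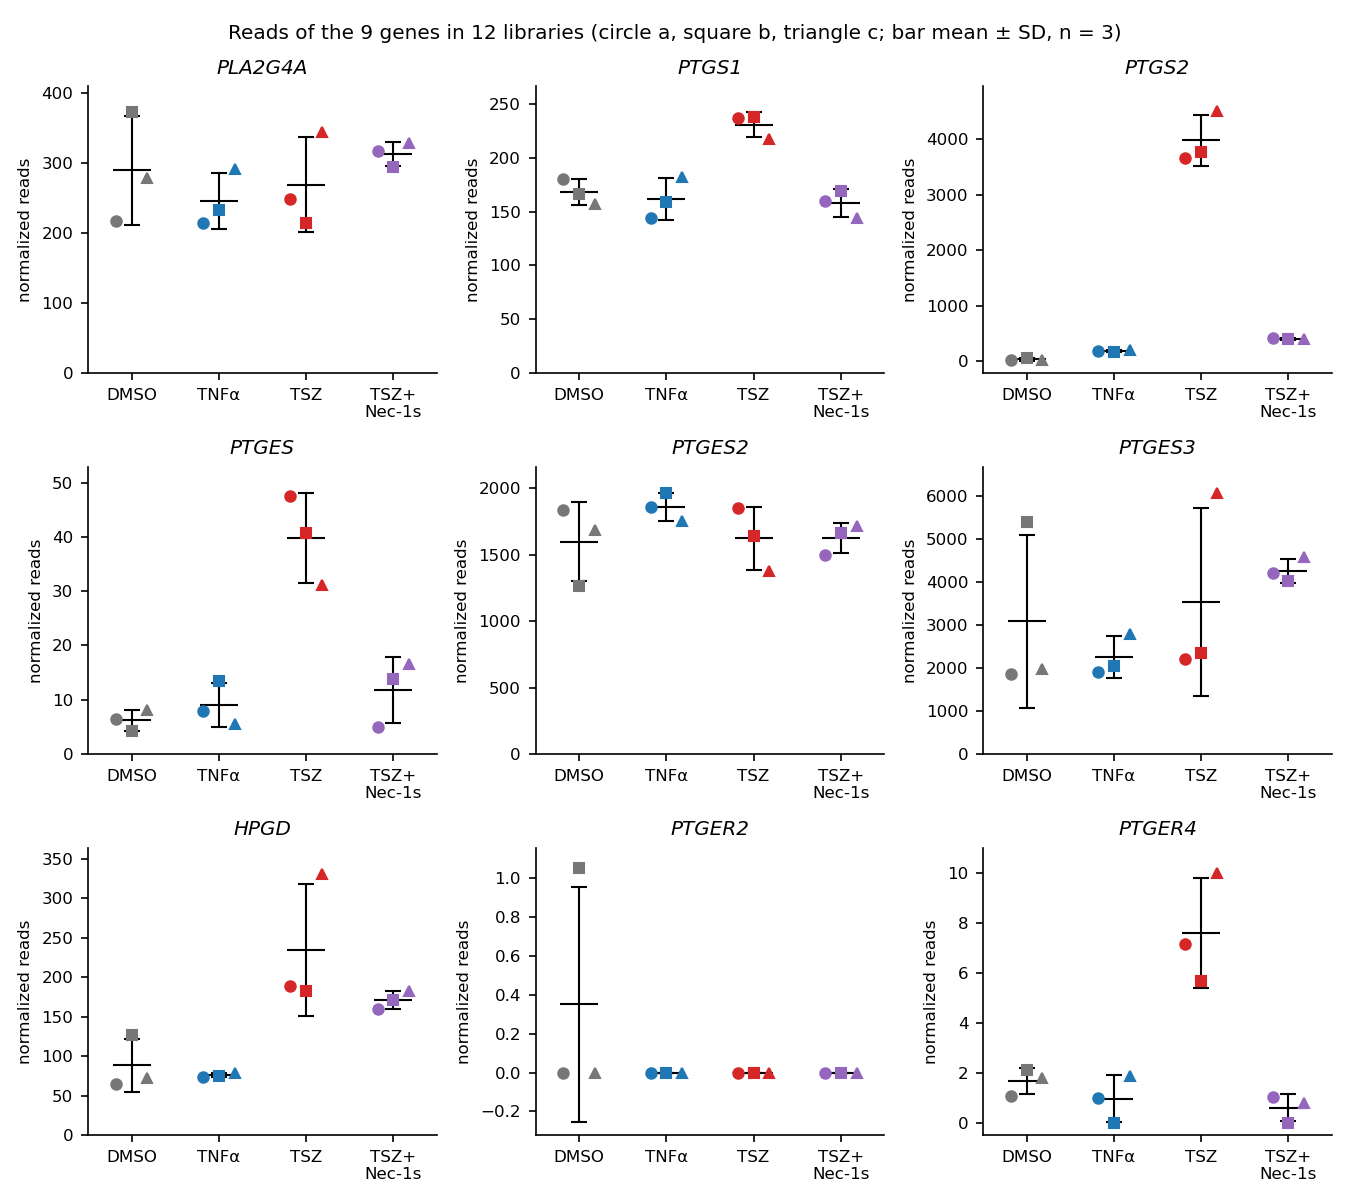
Normalized reads (linear axis, a scale of its own for each gene) of the 9 genes in the 4 groups; each symbol is 1 library and the bars are the mean ± SD of 3 libraries. PTGS2, PTGES and PTGER4 stand highest in all 3 TSZ libraries, and PTGES3 splits within DMSO and within TSZ, where 1 library of each is far above the other 2.

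Scaled to the length of their exons, the 9 genes covered a wide range in DMSO-treated cells. The mean level was 906 ± 591 normalized reads per kilobase (SD, n = 3) for PTGES3, 262 ± 48.9 for PTGES2, 101 ± 27.1 for PLA2G4A, 29.01 ± 2.09 for PTGS1 and 15.9 ± 6.14 for HPGD. PTGS2 stood at 6.985 ± 4.201, PTGES at 3.30 ± 1.03, PTGER4 at 0.468 ± 0.150 and PTGER2 at 0.142 ± 0.246 on the same scale. The libraries of PTGS2 and PTGES overlapped in this order, as did those of PTGER4 and PTGER2, and no other neighbours did. Resting HT-29 cells thus held more PTGS1 than PTGS2 RNA per length, and far more of the constitutive synthases than of the inducible PTGES. With TSZ the order changed: PTGS2 moved to 726 ± 84.1 normalized reads per kilobase, second to PTGES3 at 1040 ± 644, and these overlapped. HPGD at 42.3 ± 15.1 and PTGS1 at 39.90 ± 2.004 also overlapped in TSZ.

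A limma fit across 11682 genes with a mean of at least 10 normalized reads compared the groups, and p-values were adjusted over all of these genes. Of the 9 genes, 7 passed this limit, and PTGER2 and PTGER4 did not. Against DMSO, TNFα raised 1 of the 7 (PTGS2), TSZ raised 4 (PTGS2, PTGES, HPGD and PTGS1), and TSZ plus Nec-1s raised 2 (PTGS2 and HPGD). Over all genes tested, 3.09% were higher and 1.09% lower with TNFα, 25.8% higher and 24.2% lower under TSZ, and 7.1% higher and 5.77% lower with TSZ plus Nec-1s. Against TNFα, TSZ raised the same 4 genes that it raised against DMSO, where 22.5% of all genes were higher and 21.7% lower. Against TSZ plus Nec-1s, TSZ held 3 higher (PTGS2, PTGES and PTGS1), with 22.4% of all genes higher and 19.8% lower. TSZ plus Nec-1s held 1 gene, PTGS2, higher than TNFα, with 1.09% of all genes higher and 0.257% lower. None of the 7 was lower in any of the 6 comparisons of this fit. PTGES passed the limit on low values only through the TSZ libraries, since its mean over the other 9 was 9.04 normalized reads, so the counts that include it are a description. Without the 3 libraries that followed GC content the counts were 1, 5 and 4 against DMSO for TNFα, TSZ and TSZ plus Nec-1s, all higher; in that fit the calls over all genes also grew, for TSZ plus Nec-1s against DMSO from 830 higher and 674 lower to 3146 and 2698. That fit gave 821 higher and 473 lower over all genes for TNFα against DMSO, and 3780 and 3367 for TSZ against DMSO. Members called lower appeared in that setting, PTGES3 and PLA2G4A for TSZ against TSZ plus Nec-1s (3 higher, 2 lower) and PTGES2 for TSZ plus Nec-1s against TNFα (4 higher, 1 lower). Over all genes the former comparison gave 3713 higher and 3634 lower. The latter gave 2584 and 2228, up from 127 and 30 in the main fit, so the added member calls came with a general gain in calls. After a trend in GC content was removed, PTGES2 was called lower with TSZ against each of the other 3 groups. Lower calls over all genes grew in that setting too. They were 4309 against DMSO, 3901 against TNFα and 3599 against TSZ plus Nec-1s, beside 2832, 2531 and 2318 in the main fit. Scaled to total reads, PTGES2 was called lower with TSZ against TNFα, where the median of all genes was -0.27. Of all genes, 1620 were higher and 4477 lower under that scaling. The median log2 fold change of the 7 genes was 0.46 for TSZ against DMSO, beside -0.02 over all genes tested, and -0.05 for TNFα against DMSO, beside -0.00 over all genes. The value of 0.46 is that of PTGS1, which was 0.13 when libraries were scaled to total reads, beside -0.35 over all genes. PTGES is among the 7, so this median is a description too. The comparisons share libraries, so their values are given side by side and not as separate support.

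**Figure D2:**
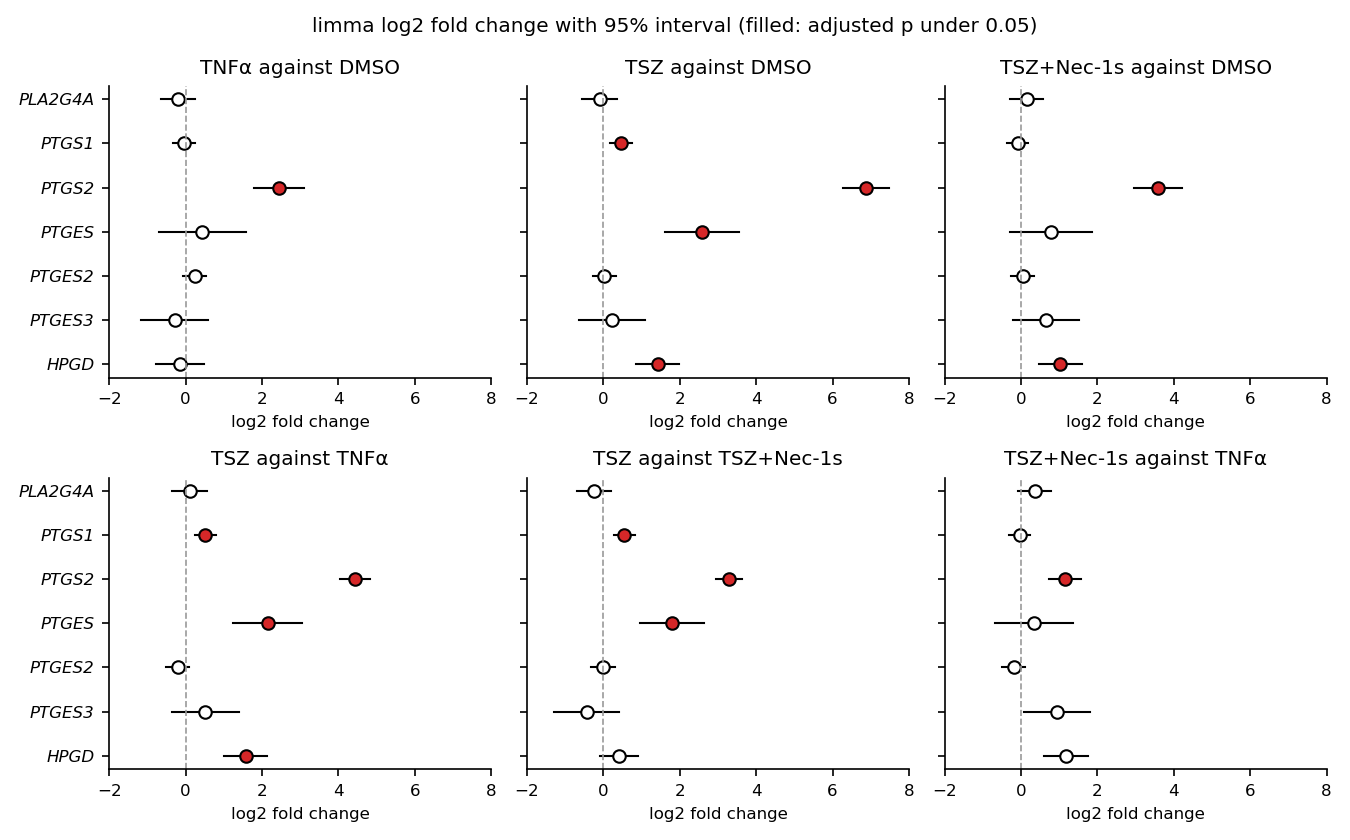
Log2 fold change (horizontal axis) of the 7 tested genes in the 6 comparisons, with lines for the 95% interval and filled points for an adjusted p under 0.05 in the limma fit. PTGS2 is filled in all 6 panels, from 1.15 for TSZ plus Nec-1s against TNFα to 6.87 for TSZ against DMSO, while PLA2G4A, PTGES2 and PTGES3 are open in all of them.

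PLA2G4A, the cytosolic phospholipase A2 that releases arachidonic acid, lies at chr1:186828949-186988981 on the plus strand of hg38, 148026 bases from PTGS2 with 1 annotated gene and no protein-coding gene between. Its normalized reads were 218, 373 and 279 in DMSO libraries a to c, 215, 233 and 292 with TNFα, 249, 214 and 345 under TSZ, and 317, 295 and 329 with TSZ plus Nec-1s. All groups overlapped except TSZ plus Nec-1s and TNFα. The log2 fold change was -0.10 ± 0.21 (SE) for TSZ against DMSO, with a 95% interval from -0.55 to 0.35 and an adjusted p of 0.720 in the limma fit. A difference in PLA2G4A RNA was thus not detectable with TSZ. In each of the 3 libraries that followed GC content PLA2G4A was 1.301 to 1.501 times the mean of the other 2 libraries of its group. Without those 3 libraries it was higher in TSZ plus Nec-1s than in DMSO, TNFα and TSZ, by 0.33 against DMSO (adjusted p = 0.0221), with a range of the adjusted p over all alternatives of 0.0221 to 0.954. After a trend in GC content was removed the same difference was -0.15 (adjusted p = 0.318), with the opposite sign. Leaving out the 3 libraries was decided after the data were seen. It removed the highest PLA2G4A library of DMSO, of TNFα and of TSZ, so the p-value of that setting is a description.

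PTGS1, the cyclooxygenase of resting tissue, lies at chr9:122370530-122395703 on the plus strand. Its normalized reads were 181, 166 and 157 in DMSO, 144, 159 and 182 with TNFα, 237, 238 and 217 under TSZ, and 160, 169 and 144 with TSZ plus Nec-1s. The 3 TSZ libraries were above all 9 others, which overlapped. PTGS1 rose 1.38-fold with TSZ over DMSO (log2 fold change 0.46 ± 0.13, adjusted p = 0.00920 in the limma fit), 1.43-fold over TNFα (adjusted p = 0.00562) and 1.47-fold over TSZ plus Nec-1s (adjusted p = 0.00395). These calls did not hold when libraries were scaled to total reads, where the log2 fold change over DMSO was 0.13 (adjusted p = 0.400; range over the alternatives 0.00388 to 0.400). The median of all genes was -0.35 under that scaling and -0.02 in the fit above.

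PTGS2 encodes COX-2, the cytokine-inducible cyclooxygenase, and lies at chr1:186671791-186680922 on the minus strand. Its promoter is printed because PTGS2 had the largest fold change of the 7 tested genes in 5 of the 6 comparisons, and its untranslated site because such sites mark short-lived RNAs. The RefSeq window, chr1:186680374-186680673 of GRCh38.p14, runs from 250 bases before to 50 after the start. Capitals mark matches, on either strand, to an NF-κB motif (GGG, any 5 bases, CC), a C/EBP motif (TTNCNNAA), the CGTCA core of a cAMP response element and a TATA box (TATAAA); an AP-1 motif (TGANTCA) was also searched and had no match.
PTGS2 promoter: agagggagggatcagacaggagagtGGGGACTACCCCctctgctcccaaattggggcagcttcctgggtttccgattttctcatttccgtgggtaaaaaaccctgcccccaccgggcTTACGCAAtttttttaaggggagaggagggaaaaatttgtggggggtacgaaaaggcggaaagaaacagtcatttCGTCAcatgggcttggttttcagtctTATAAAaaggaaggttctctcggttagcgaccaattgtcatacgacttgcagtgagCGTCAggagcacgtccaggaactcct
PTGS2 bases 1 to 30 after the stop codon: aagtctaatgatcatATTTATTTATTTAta
The window held 3 NF-κB matches that overlap each other from base -225, the C/EBP match at -133, the CGTCA cores at -58 and 24, and the TATA box at -32. Of 35116 RefSeq promoters, 58.7% held the NF-κB letters, 36.8% the C/EBP letters, 24.6% CGTCA, 11.5% TATAAA and 7.71% the AP-1 letters. In the site after the stop codon the capitals mark 3 overlapping copies of ATTTA. The whole untranslated end of PTGS2, 2562 bases, held 22 copies, a number reached by 2.47% of 18370 genes, and the median gene held 2. Per kilobase PTGS2 held 8.59 copies, close to the 8.46 of PLA2G4A, while PTGER4 held 6.63 and the median gene 1.60. Among the other genes of the pathway PTGER4 held 9, PTGES3 6, HPGD 5, PTGER2 5, PLA2G4A 4, PTGS1 3, PTGES 1 and PTGES2 0.

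PTGS2 had 31.0, 64.1 and 19.8 normalized reads in DMSO libraries a to c and 181, 162 and 207 with TNFα. Its normalized reads were 3664, 3773 and 4512 under TSZ, and 420, 402 and 397 with TSZ plus Nec-1s. No groups overlapped in any pair. The rise over DMSO was 2.43 ± 0.30 on the log2 scale with TNFα (adjusted p = 0.000306), 6.87 ± 0.28 with TSZ (adjusted p = 6.04e-10) and 3.58 ± 0.29 with TSZ plus Nec-1s (adjusted p = 2.98e-06), all in the limma fit. These ranked 48, 15 and 39 from the top among 11682 genes. TSZ stood 4.44 ± 0.18 above TNFα (adjusted p = 9.63e-10) and 3.29 ± 0.16 above TSZ plus Nec-1s (adjusted p = 5.26e-09). With Nec-1s a level above TNFα alone was left, by 1.15 ± 0.20 (adjusted p = 0.0121). This last call was lost without TNFα library a or b or any of the 3 TSZ plus Nec-1s libraries, with values of 1.06 to 1.17 and adjusted p-values of 0.0583 to 0.0852, and also after a trend in GC content was removed (0.61, adjusted p = 0.0632; range over the alternatives 1.39e-08 to 0.0995). DMSO library b, one of those that followed GC content, held 2.52 times the mean of the other 2 DMSO libraries, and over all alternatives the rise with TSZ over DMSO ranged from 6.45 to 7.32. The noncoding gene PACERR overlaps PTGS2 on the opposite strand by 219 exonic bases, and its reads, which were counted without regard to strand, summed to 1, 8, 8 and 4 in DMSO, TNFα, TSZ and TSZ plus Nec-1s.

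Of the length-scaled reads of both cyclooxygenases, PTGS2 made up 18.7% ± 9.06 (SD, n = 3) in DMSO, 54.4% ± 2.61 with TNFα, 94.7% ± 0.777 under TSZ, and 73.1% ± 1.51 with TSZ plus Nec-1s. The DMSO libraries ran from 11.8% to 28.9%, and no libraries of different groups overlapped. The main cyclooxygenase RNA thus changed from PTGS1 in DMSO to PTGS2 in the other groups, with PTGS1 and PTGS2 near balance with TNFα alone.

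**Figure D3:**
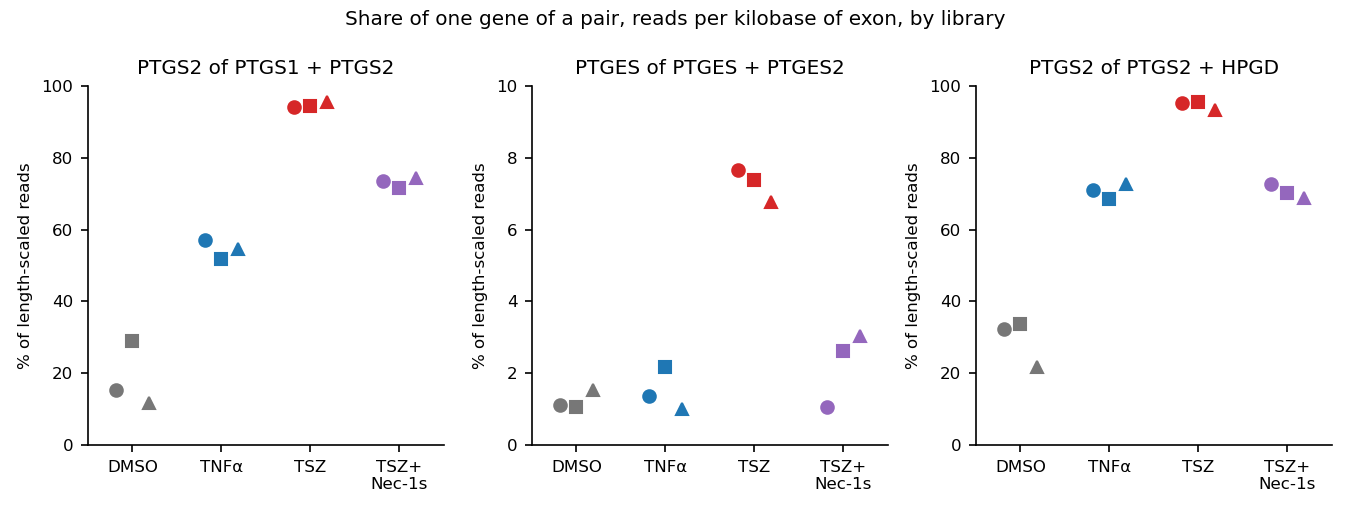
Share of PTGS2 among both cyclooxygenases (left), of PTGES among PTGES and PTGES2 (middle, axis to 10%) and of PTGS2 among PTGS2 and HPGD (right), in percent of reads per kilobase of exon; each symbol is 1 library. The TSZ libraries are highest in each panel, and in the left panel the DMSO libraries lie at 11.8% to 28.9% against 94.2% to 95.6% with TSZ.

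PTGES is the microsomal prostaglandin E synthase that is induced with COX-2 in inflammation, and lies at chr9:129738331-129753042 on the minus strand. Its promoter is shown beside that of PTGS1 for comparison with the window of PTGS2, since these are the other 2 synthesis genes that rose with TSZ. The windows are chr9:129752993-129753292 on the minus strand and chr9:122370283-122370582 on the plus strand, with the same motifs in capitals.
PTGES promoter: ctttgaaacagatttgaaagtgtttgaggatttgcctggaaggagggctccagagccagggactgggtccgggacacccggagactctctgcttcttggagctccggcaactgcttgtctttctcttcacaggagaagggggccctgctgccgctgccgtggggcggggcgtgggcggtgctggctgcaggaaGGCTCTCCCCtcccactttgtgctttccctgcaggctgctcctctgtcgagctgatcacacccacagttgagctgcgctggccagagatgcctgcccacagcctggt
PTGS1 promoter: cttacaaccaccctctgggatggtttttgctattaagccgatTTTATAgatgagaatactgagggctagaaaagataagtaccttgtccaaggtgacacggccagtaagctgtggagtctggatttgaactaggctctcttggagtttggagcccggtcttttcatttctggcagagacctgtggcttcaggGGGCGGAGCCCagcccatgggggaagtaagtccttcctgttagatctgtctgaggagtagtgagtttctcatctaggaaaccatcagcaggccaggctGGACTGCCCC
The PTGES window held only 1 NF-κB match, at -57, among the 5 motifs, and the PTGS1 window 3, of which the 2 at -58 and -57 overlap, and a TATA match on the opposite strand at -208. The C/EBP, CGTCA and AP-1 letters were absent from both windows. RefSeq gives a second PTGS1 promoter, chr9:122375052-122375351, which held 1 NF-κB match, at -55, and a C/EBP match at -115.

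PTGES was scarce at rest. Its reads before scaling were 6, 4 and 9 in DMSO and 8, 14 and 6 with TNFα. They were 40, 36 and 28 under TSZ, and 5, 16 and 21 with TSZ plus Nec-1s. In normalized reads the TSZ libraries, at 31.1 to 47.6, lay above all 9 others, whose highest was 16.6. PTGES rose 5.997-fold with TSZ over DMSO (log2 fold change 2.58 ± 0.45, adjusted p = 0.000369), 4.43-fold over TNFα (adjusted p = 0.00102) and 3.48-fold over TSZ plus Nec-1s (adjusted p = 0.00261) in the limma fit. On log2 values plus 10 without weights these rises were smaller on the log2 scale, 1.61 over DMSO, 1.39 over TNFα and 1.22 over TSZ plus Nec-1s. The adjusted p-values of that fit were 0.000104, 0.000407 and 0.00136. PTGES entered both fits only through its TSZ libraries, so these folds and p-values are a description. A limma fit without the limit on low values, which PTGES entered at any TSZ level, gave adjusted p-values of 0.000483, 0.00152 and 0.00388. TNFα alone gave 0.44 with a 95% interval from -0.69 to 1.57, and TSZ plus Nec-1s gave 0.78 over DMSO with an interval from -0.30 to 1.87 and an adjusted p of 0.351, so a difference was not detectable in these groups at this depth.

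PTGES2, a membrane-associated synthase, and PTGES3, which is also the HSP90 co-chaperone p23, carry most of the synthase reads at rest. PTGES2 (chr9:128120693-128128462, minus strand) had 1836, 1263 and 1690 normalized reads in DMSO, 1859, 1964 and 1757 with TNFα, 1849, 1643 and 1378 under TSZ, and 1497, 1661 and 1714 with TSZ plus Nec-1s. Only TNFα and TSZ plus Nec-1s did not overlap. Its log2 fold change for TSZ against DMSO was 0.03 ± 0.14 (adjusted p = 0.875), with a 95% interval from -0.28 to 0.34. PTGES2 is the most GC-rich of the 9 genes at 63.2%, and after a GC trend was removed it was lower with TSZ, by -0.24 against DMSO (adjusted p = 0.00486). Over the alternatives this adjusted p ranged from 0.00486 to 0.948. With the GC trend removed, the median of all genes was -0.10 for TSZ against DMSO. Scaled to total reads, PTGES2 was lower with TSZ than with TNFα (-0.49, adjusted p = 0.00711 in limma). The share of PTGES among the length-scaled reads of PTGES and PTGES2 was 1.23% ± 0.252 in DMSO, 7.26% ± 0.453 with TSZ, 1.51% ± 0.585 with TNFα and 2.24% ± 1.03 with TSZ plus Nec-1s. The TSZ libraries did not overlap with those of any other group. With the longest transcript in place of all exons these shares were 0.715% in DMSO, 4.33% with TSZ, 0.881% with TNFα and 1.31% with TSZ plus Nec-1s.

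PTGES3 (chr12:56663341-56688408, minus strand) showed a split within groups. It had 1860, 5399 and 1982 normalized reads in DMSO libraries a to c, 1905, 2048 and 2798 with TNFα, 2200, 2345 and 6062 under TSZ, and 4196, 4018 and 4567 with TSZ plus Nec-1s. DMSO library b and TSZ library c, both of which followed GC content, held 2.81 and 2.67 times the mean of the other 2 libraries of their groups. In the fit over all libraries PTGES3 did not pass any comparison, with 0.65 ± 0.39 for TSZ plus Nec-1s against DMSO (adjusted p = 0.319). Without DMSO library b the same difference was 1.15 (adjusted p = 0.0131), and without all 3 libraries that followed GC content it was 1.15 (adjusted p = 1.40e-13; range over the alternatives 1.40e-13 to 0.675). Under the latter setting TSZ stood 0.91 below TSZ plus Nec-1s (log2 fold change -0.91, adjusted p = 3.54e-12) and 0.24 above DMSO (adjusted p = 0.00818). That setting was chosen after the data were seen and left out the libraries where PTGES3 stood highest in DMSO, TNFα and TSZ. Its small p-values are therefore a description. After a trend in GC content was removed PTGES3 passed in none of these comparisons, with 0.48 for TSZ plus Nec-1s against DMSO (adjusted p = 0.199) and -0.28 for TSZ against TSZ plus Nec-1s (adjusted p = 0.376). The annotation names 5 processed copies of PTGES3 elsewhere in the genome, which could share its reads.

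**Figure D4:**
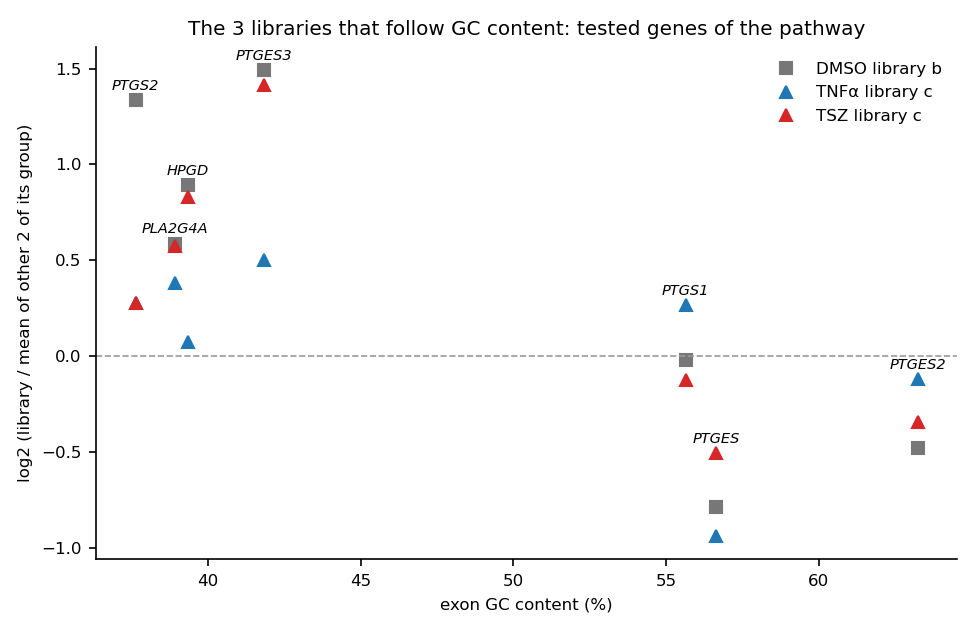
Log2 ratio of each of the 3 libraries that followed GC content to the mean of the other 2 libraries of its group (vertical axis) against the exon GC content of the 7 tested genes (horizontal axis, percent). PTGS2, PLA2G4A, HPGD and PTGES3, at 37.6% to 41.8%, lie above 0 in all 3 libraries, and PTGES and PTGES2 lie below 0 in all 3.

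HPGD, the dehydrogenase that inactivates prostaglandin E2, lies at chr4:174490175-174523154 on the minus strand. It had 65.2, 127 and 72.0 normalized reads in DMSO, 74.1, 75.1 and 78.5 with TNFα, 189, 183 and 331 under TSZ, and 160, 171 and 183 with TSZ plus Nec-1s. TSZ and TSZ plus Nec-1s lay above DMSO and TNFα in every library, and the lowest TSZ library was barely above the highest with Nec-1s. HPGD rose 2.68-fold with TSZ over DMSO (log2 fold change 1.42 ± 0.26, adjusted p = 0.000566), 2.97-fold over TNFα (adjusted p = 0.000365) and 2.04-fold with TSZ plus Nec-1s over DMSO (1.03 ± 0.26, adjusted p = 0.0208) in the limma fit. The difference between TSZ and TSZ plus Nec-1s was 0.40 with a 95% interval from -0.10 to 0.89 (adjusted p = 0.181), and that between TSZ plus Nec-1s and TNFα was 1.17 with an adjusted p of 0.0522. The latter passed with only the 6 libraries compared (1.17, adjusted p = 4.35e-05), after a GC trend was removed (0.74, adjusted p = 0.00170) and without the 3 libraries that followed GC content (1.20, adjusted p = 3.00e-06), and its adjusted p reached 0.218 over the alternatives. Leaving out those 3 libraries was decided after the data were seen. It removed the highest HPGD library of DMSO, of TNFα and of TSZ, and none of TSZ plus Nec-1s. The p-value of that setting is therefore a description. Of the 4 genes raised by TSZ, HPGD was thus the only member without a detected difference between TSZ and TSZ plus Nec-1s in this fit. After a GC trend was removed the difference between TSZ and TSZ plus Nec-1s passed (0.62, adjusted p = 0.000109; range over the alternatives 0.000109 to 0.669). The call for TSZ plus Nec-1s over DMSO was lost without DMSO library a or c or TSZ plus Nec-1s library b or c, with values of 0.86, 0.90, 1.03 and 0.98 and adjusted p-values of 0.0603 to 0.110. A noncoding gene on the opposite strand shares 314 exonic bases with HPGD and was not analysed here.
The first of its 2 RefSeq promoter windows, chr4:174522439-174522738 on the minus strand, is printed because HPGD acts against the synthesis genes and rose beside them with TSZ.
HPGD promoter: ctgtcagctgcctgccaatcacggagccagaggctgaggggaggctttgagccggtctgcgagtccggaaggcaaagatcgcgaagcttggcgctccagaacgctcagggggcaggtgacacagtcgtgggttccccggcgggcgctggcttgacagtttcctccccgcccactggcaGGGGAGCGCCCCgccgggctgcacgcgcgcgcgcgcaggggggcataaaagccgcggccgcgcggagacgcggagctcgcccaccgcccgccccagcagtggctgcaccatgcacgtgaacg
It held 3 NF-κB matches that overlap each other from -72 and no match to the other 4 motifs. The second HPGD promoter in RefSeq, chr4:174522844-174523143, held no NF-κB match and 1 CGTCA core, at -77.

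The ratio of PTGS2 to HPGD, per length, was 0.422 ± 0.126 (SD, n = 3) in DMSO, 2.43 ± 0.248 with TNFα, 18.04 ± 3.754 under TSZ, and 2.40 ± 0.228 with TSZ plus Nec-1s. The TNFα libraries, at 2.17 to 2.67, and those of TSZ plus Nec-1s, at 2.19 to 2.65, overlapped throughout although both genes were at higher means with TSZ plus Nec-1s. With the longest transcript in place of all exons the ratios were 0.259, 1.497, 11.1 and 1.477 in the same order of groups.

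The receptors PTGER2 (chr14:52314305-52328598, plus strand) and PTGER4 (chr5:40679915-40693735, plus strand), which raise cyclic AMP, were near the limit of detection. PTGER2 had 1 read in the 12 libraries, in DMSO library b, and every group was under a floor of 3 counts per group, so no fold is given. PTGER4 had 1, 2 and 2 reads in DMSO, 1, 0 and 2 with TNFα, 6, 5 and 9 under TSZ, and 1, 0 and 1 with TSZ plus Nec-1s. Its sum of 20 reads with TSZ was 4.56 times the scaled sum of 5 in DMSO, with an exact (Clopper-Pearson) 95% interval from 1.66 to 15.6 for counting error only. The ratio to the 3 reads with TNFα was 7.89 with an interval from 2.34 to 41.4, and that to the 2 reads with TSZ plus Nec-1s was 13.0 with an interval from 3.15 to 115. Those 2 reads were themselves under the floor of 3 counts. In a limma fit without the limit on low genes PTGER4 passed in all 3 comparisons, with adjusted p-values of 0.01999, 0.00297 and 0.00148. The TSZ libraries were the 3 highest. The annotation names 2 processed copies of PTGER4, which could share its reads.

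By Pearson's r of log2 normalized reads plus 1 over the 12 libraries, the genes most like PTGS2 among those tested were SAV1 (r = 0.994), CFLAR (0.992) and CAPRIN2 (0.991). For HPGD they were RAP1B (0.989), TAX1BP1 (0.980) and PDE4D (0.973). The mean of RAP1B was 223 normalized reads in DMSO, 179 with TNFα, 852 under TSZ, and 483 with TSZ plus Nec-1s. For PTGES the most alike were PRDX6 (0.951), RPS29 (0.949) and TPPP3 (0.947), and for PTGS1 GLUD2 (0.937), HIST1H1C (0.934) and RTN4R (0.933). The 12 points share 4 group means, depth and GC deviations, and the values are descriptions.

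A wider list held 53 other eicosanoid genes, of which 22 passed the limit on low values and 31 did not. Among these 22, TNFα raised 0 and lowered 1 against DMSO, TSZ raised 4 and lowered 6, and TSZ plus Nec-1s raised 0 and lowered 3. The median log2 fold change of the 22 with TSZ was 0.01, close to that of all genes. TSZ against TSZ plus Nec-1s gave 7 higher and 3 lower, TSZ against TNFα 5 and 4, and TSZ plus Nec-1s against TNFα 0 and 0; each is read against the shares of all genes given above. When libraries were scaled to total reads, 4 of the 7 higher calls over TSZ plus Nec-1s were lost (ALOX5, LTA4H, LTB4R and PLA2G15), as were 2 of the 5 over TNFα (LTA4H and PLA2G15). No receptor for another prostanoid passed the limit, out of 7 listed.

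Among the enzymes that act on the substrate, PLA2G4F, a cytosolic phospholipase A2 related to PLA2G4A, had 68.4, 47.3 and 60.3 normalized reads in DMSO, 25.0, 28.9 and 28.97 with TNFα, 15.5, 14.7 and 15.5 under TSZ, and 12.1, 16.5 and 17.4 with TSZ plus Nec-1s. The treated libraries all lay below the DMSO libraries. It was lower than DMSO in all 3 treated groups, by -1.06 ± 0.21, -1.89 ± 0.24 and -1.90 ± 0.23 on the log2 scale (adjusted p = 0.00920, 3.27e-05 and 0.000112 in the limma fit), and did not differ detectably between TSZ and TSZ plus Nec-1s (0.00, 95% interval from -0.61 to 0.62). The call for TNFα was lost without TNFα library a (-0.99, adjusted p = 0.0533) and with only the 6 libraries compared (-1.06, adjusted p = 0.0758). PLA2G12A, a secreted phospholipase A2, was lower with TSZ over DMSO (-0.46, adjusted p = 0.0143), but not past the threshold without TSZ library a (-0.33, adjusted p = 0.0745). With only the 6 libraries compared the call of PLA2G12A was lost too (-0.47, adjusted p = 0.0741). DAGLA, which makes the endocannabinoid 2-arachidonoylglycerol, was lower with TSZ over DMSO (-0.87, adjusted p = 0.000734), whereas MGLL, the lipase that releases arachidonic acid from that lipid, was higher (0.78, adjusted p = 0.000206). MGLL had 1990, 1528 and 1905 normalized reads in DMSO and 3357, 3382 and 2583 with TSZ, against 1813, 1880 and 1849 with TSZ plus Nec-1s. PLA2G15, a lysosomal phospholipase, was higher with TSZ over TNFα (0.43, adjusted p = 0.0343) and over TSZ plus Nec-1s (0.53, adjusted p = 0.0126), and both calls were lost without TSZ library b (0.32 and 0.42, adjusted p = 0.139 and 0.0623); the call over TNFα was also lost without TSZ library a or any 1 of the TNFα libraries.

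Of the genes acting on the products, AKR1C3, an aldo-keto reductase with prostaglandin F synthase activity, rose with TSZ over DMSO (0.74, adjusted p = 0.000118), and PTGR1, a reductase of prostaglandin and leukotriene breakdown, rose too (0.66, adjusted p = 0.000173). ZADH2, another prostaglandin reductase, was lower (-0.74, adjusted p = 0.000578), as were the carbonyl reductase CBR1 (-0.44, adjusted p = 0.00671) and ABCC4, an exporter of prostaglandins (-0.61, adjusted p = 0.00809). CBR1 was also lower with TSZ plus Nec-1s over DMSO (-0.42, adjusted p = 0.0282), a call that was lost without DMSO library a or c or TSZ plus Nec-1s library a or c (adjusted p = 0.0946 to 0.129). It was also lost with only the 6 libraries compared (adjusted p = 0.0801). In the leukotriene branch, LTA4H, the leukotriene A4 hydrolase, was higher with TSZ (0.37, adjusted p = 0.00580), a call that did not hold under scaling to total reads (0.03, adjusted p = 0.773) or after removal of a GC trend. With only the 6 libraries compared it did not hold either (0.37, adjusted p = 0.0539). ALOX5, the 5-lipoxygenase, was lower with TSZ plus Nec-1s over DMSO (-0.54, adjusted p = 0.0378), and ALOX5 and the leukotriene B4 receptor LTB4R were higher with TSZ than with TSZ plus Nec-1s (0.51 and 0.63, adjusted p = 0.0217 and 0.0138). The ALOX5 calls were lost without most single libraries of their groups, and that of LTB4R without TSZ library a or b (0.51 and 0.57, adjusted p = 0.0632 and 0.0519). The lower call of ALOX5 was also lost without the limit on low values (adjusted p = 0.0629) and with only the 6 libraries compared (adjusted p = 0.0839).

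**Figure D5:**
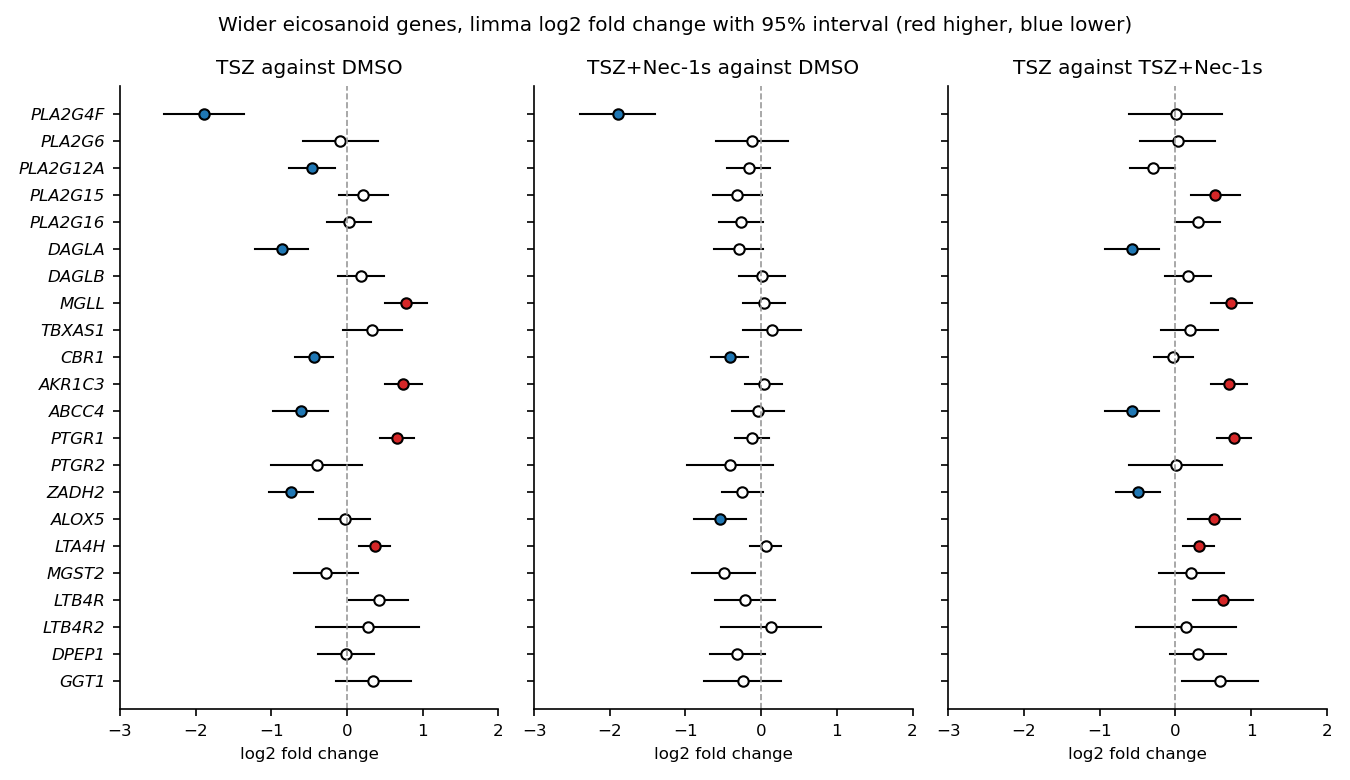
Log2 fold change with 95% interval (horizontal axis) of the 22 tested genes of the wider list in 3 comparisons; red points are higher and blue points lower at an adjusted p under 0.05 in the limma fit. PLA2G4F is far to the left in both comparisons with DMSO, at -1.89 and -1.90, and near 0 between TSZ and TSZ plus Nec-1s.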

How the data were processed

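PolyA RNA of HT-29 cells was sequenced in 12 libraries, 3 per group, and samples were grouped by their labels. STAR 2.3.0e (genome hg38) and HTSeq 0.5.4e (intersection-strict, without strand) gave the authors' reads per gene, which DESeq scaled; the paper and the labels name different extraction and library kits. The signal columns of the 6 deposited tables hold the authors' mean of scaled counts per group; the columns of the authors' folds, log2 folds, p-values and adjusted p-values were not used.

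Each mean averages the reads of 3 libraries, every library scaled by its own size factor. The value of 1 read in each library was found from genes with few reads, and the whole reads of a gene were accepted where 1 combination met the printed mean to its 15 digits: 26409 of 26485 genes were solved in every group, and all 9 genes described. Size factors recomputed from the reads differed from these steps by at most 0.00273 (relative). limma 3.58.1 (voom weights, R 4.3.3) was fitted to 12 libraries in 4 groups for the 11682 genes that averaged 10 or more normalized reads, with Benjamini-Hochberg adjustment and a threshold of 0.05; recovery and fit were tested on simulated data. Alternatives were other scalings, filters and pseudocounts, removal of a GC trend, the 6 libraries compared only, and leaving out each library. Leaving out the 3 libraries with a rho below -0.5 with GC content, and ratios per longest transcript, were added after the data were seen. Scaling to total reads used only the reads of the genes solved in every group. Lengths, GC content and coordinates come from the GENCODE annotation of hg38, where 23161 symbols matched directly, 1384 through an older symbol and 1940 not, and promoters from RefSeq (GRCh38.p14), which held all 9 genes. The named genes were all 9, those of the wider list that passed in any comparison, and the 3 most alike by Pearson's r for each of the 9 that passed with TSZ against DMSO. The genes and lists were chosen with earlier results of these data known. Python 3.11.15, numpy 2.4.6, pandas 2.3.3, scipy 1.17.1, numba 0.67.0 and matplotlib 3.10.9 were used.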

Additional observations from a re-analysis of the deposited data

How the results depend on the processing

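The numbers of genes that passed were the same, or within 1.5 times, under every alternative run for TNFα, TSZ against DMSO and TSZ against TNFα. The genes and directions could still change. Scaled to total reads, TSZ against TNFα kept 4 calls in limma, now 3 higher and 1 lower. Over all genes that setting gave 1620 higher and 4477 lower, beside 2633 and 2531 in the main fit. PTGS1 was lost (0.23, adjusted p = 0.141) and PTGES2 was called lower (-0.49, adjusted p = 0.00711). For TSZ plus Nec-1s against DMSO 2 genes passed, 4 without the 3 libraries that followed GC content, and 1 to 3 when a library was left out. For TSZ plus Nec-1s against TNFα 1 passed, 0 on log2 values plus 1 or plus 10 without weights, 4 with only the 6 libraries compared, 5 without the 3 libraries (4 higher, 1 lower), and 0 to 3 when a library was left out. With only the 6 libraries the log2 fold changes were those of the main fit, 1.17 for HPGD and 0.94 for PTGES3. The share of all genes that passed in that setting is not given, so its 4 calls are a description. For TSZ against TSZ plus Nec-1s 3 passed, all higher, 5 after a GC trend was removed (4 higher, 1 lower) and 5 without the 3 libraries (3 higher, 2 lower). Over all genes these settings gave 3043 higher and 3599 lower, and 3713 and 3634, beside 2621 and 2318 in the main fit. PTGES2 turned from 0.03 to -0.24 for TSZ against DMSO after the GC trend was removed; the cause was not tested. Of 624 values of the 7 tested genes recomputed, 589 stayed called or not called as before, 15 lost a call and 19 gained one. A further 1, PTGES2 for TSZ against DMSO, was not called in the main fit. It was called lower, with the opposite sign, after the GC trend was removed. Of the 589, 35 that were not called either way changed sign. All calls of PTGS2 and HPGD for TSZ against DMSO and against TNFα were kept in the alternatives that tested them. Those of PTGES were kept too, but with the limit on low values PTGES entered only through its TSZ libraries. A limit of 50 left PTGES untested. With the longest transcript in place of all exons the DMSO levels per kilobase were 33.4 for PTGS1, 460 for PTGES2 and 30.2 for HPGD. Scaling to total reads moved the median of all genes from -0.02 to -0.35 for TSZ against DMSO and turned 3009 higher and 2832 lower calls into 1826 and 5112. These totals leave out the reads of the unsolved genes. No paired analysis was possible because the columns carry no replicate numbers. Depth limits PTGES, PTGER2 and PTGER4, whose reads per library were few.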
